A study of Mus musculus with 6 samples.

Results

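NuRD (nucleosome remodeling and deacetylase) is a chromatin complex in which an ATPase that moves nucleosomes works beside histone deacetylases. Its 10 subunit genes outside the Chd family are described here in mouse N2a neuroblastoma cells: Mta1, Mta2, Mta3, Mbd2, Mbd3, Gatad2a, Gatad2b, Hdac1, Hdac2 and Rbbp4. They were taken by gene name from a table of 54532 genes, and each of the 10 names matched 1 gene. RNA sequencing gave the level of each gene in 3 libraries of cells transfected with si-NC, the control siRNA, and 3 libraries of cells transfected with si-circRtn4, an siRNA against the back-splice junction of the circular RNA circRtn4. The labels give all 6 libraries the Neuro2A line, the strain C57BL/6, total RNA and a growth medium with 10% serum. In the study's methods N2a cells received siRNA at 100 nM, and differentiation followed after 24 h, through 48 h with 10 μM retinoic acid. The labels do not say whether the sequenced cells were differentiated. A single cell line was used, and nothing says that the 3 libraries of a group came from separate cultures, so the p-values measure the spread between these libraries, which may be technical.

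In NuRD each paralogue of a set takes the same place. An ATPase of the CHD3, CHD4 and CHD5 group slides nucleosomes, HDAC1 or HDAC2 removes acetyl groups from histone tails, and MTA proteins form the scaffold that holds the deacetylases. RBBP4 and RBBP7 bind histones, MBD2 or MBD3 sits in the middle of the complex, and GATAD2A or GATAD2B joins the MBD protein to the ATPase. CHD5 is the neuronal ATPase of this group, and its gene is the one the study followed downstream of circRtn4, which raises the question of whether the partners of Chd5 moved with it.

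None of the 10 subunit genes passed the test, and their levels in the si-circRtn4 libraries were 91.2% to 113.6% of those in the si-NC libraries. The values are FPKM as deposited, that is fragments scaled by gene length and by library depth. Fold changes are differences of log2(FPKM + 1), a scale that understates the change of low genes, from limma over the 12749 genes whose mean over the 6 libraries reached 1 FPKM, a filter that 10 of 10 members passed. At an adjusted p under 0.05 (Benjamini-Hochberg over all genes tested) 0 of 10 members were called, where 9.19% of the genes tested were called. With replicate number as a block, 0 of 10 members were called as well, where 19.0% of the genes tested were called. Without the block, the members at an unadjusted p under 0.05 also numbered 0, against 25.9% of the genes tested. With the block Gatad2a had an unadjusted p of 0.0262 in limma. In that fit 2258 genes were higher and 2216 lower at an unadjusted p under 0.05. The groups did not overlap for 1 of the 10 members (Mta3), against 31.7% of the genes tested. Of the 5877 genes tested whose si-NC mean lay between the lowest and the highest member, 10.1% were called. The log2 fold changes of the members ran from -0.12 (Gatad2b and Mta2) to 0.17 (Gatad2a), with 6 above 0 and 4 below, and their median of 0.022 stood beside 0.0020 for all genes tested. Their median size regardless of sign was 0.077, and that of all genes tested was 0.14. The 95% intervals of the 10 members together reached from -0.34 to 0.38, which is 0.79 to 1.30 times the si-NC level of FPKM + 1.

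**Figure D1:**
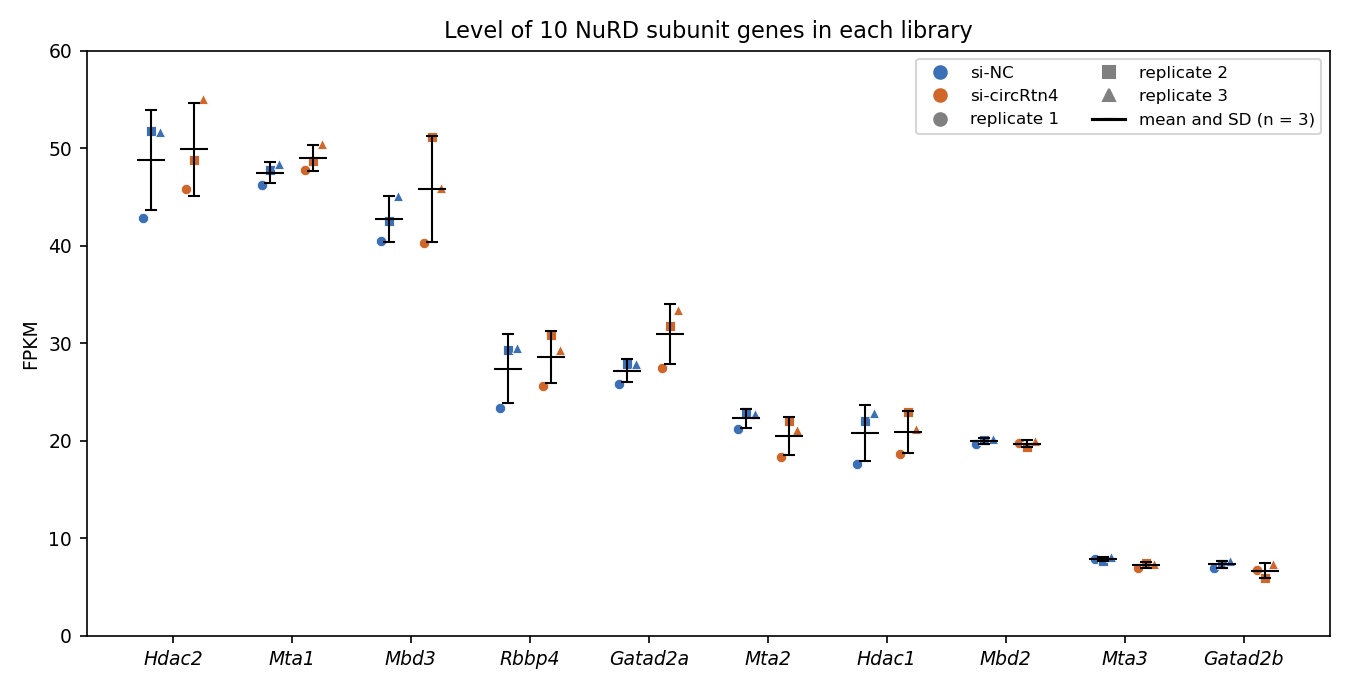
FPKM of the 10 subunit genes (y axis) in each si-NC and si-circRtn4 library, ordered by the si-NC mean, with symbols for the replicate number and bars for the mean and SD of 3 libraries. The groups overlap for each gene except Mta3, and the circles of replicate 1 lie lowest in both groups for 7 of the 10 genes.

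The reads behind these values were 524 to 4195 per member and library. Whole reads could be recovered from FPKM and gene length, with totals of 14100818 to 14748929 for si-NC and 13541198 to 15122063 for si-circRtn4. The correlation of log2 values was 0.980 to 0.986 among si-NC libraries, 0.981 to 0.985 among si-circRtn4 libraries and 0.967 to 0.977 across groups. Of all genes tested, 556 were called higher and 615 lower, but 977 higher and 400 lower once values were converted to TPM, which gives every library an equal sum. Gm23935, annotated as a miRNA gene, held 20.09% to 20.7% of the FPKM sum in si-NC and 13.45% to 18.81% in si-circRtn4, and with TPM computed without it 593 were called higher and 541 lower. Rtn4, the host gene of circRtn4, measured 61.0, 66.8 and 69.8 FPKM with si-NC against 50.1, 56.7 and 62.7 FPKM with si-circRtn4, and its reads do not tell linear from circular RNA. Its log2 fold change was -0.22 (adjusted p = 0.216 in limma, and 0.0447 with replicate number as a block). The neuroblastoma markers Hand2 (178.4 to 237.7 FPKM), Phox2a (128.5 to 218.2) and Tubb3 were present in all libraries, whereas the neurofilament gene Nefl was listed at 0 in all 6 and Nefm, another neurofilament gene, did not exceed 0.023 FPKM. The 9 markers used summed to 934 to 1047 FPKM in si-NC and 664 to 930.2 FPKM in si-circRtn4. Dbh, Th and Phox2a were called lower. Over the alternatives to the main fit, the adjusted p in limma reached 0.0769 for Phox2a, 0.0306 for Th and 0.0275 for Dbh. Hand2, Gata3, Stmn2 and Tubb3 were not called (log2 fold changes -0.10, -0.082, 0.12 and -0.34). The 11 markers of fibroblasts, glia, endothelium and leukocytes summed to 5.06 to 6.26 FPKM in si-NC and 4.31 to 6.69 FPKM in si-circRtn4, most of it Mbp, with Aqp4 at 0 in all libraries. The part of these cell states in the values of the members was not tested, and in bulk RNA fewer cells of a type and less RNA per cell cannot be told apart.

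The deacetylases were led by Hdac2 (ENSMUSG00000019777, GRCm38 chromosome 10, 36974544 to 37001889). Hdac2 was at 42.8, 51.8 and 51.6 FPKM in si-NC and at 45.8, 48.8 and 55.0 FPKM in si-circRtn4. Replicate 1 was the lowest library of each group, and the groups overlapped. The means were 48.8 ± 5.14 and 49.9 ± 4.72 FPKM (SD, n = 3 each), with a log2 fold change of 0.033 (95% interval -0.21 to 0.28, adjusted p = 0.881 in limma).

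Hdac1 (ENSMUSG00000028800, chromosome 4, 129516104 to 129542713), the other catalytic subunit, was at a lower level. It measured 17.6, 22.04 and 22.8 FPKM in si-NC and 18.6, 22.9 and 21.2 FPKM in si-circRtn4. Again replicate 1 was lowest on both sides, and the groups overlapped. The means were 20.8 ± 2.85 and 20.9 ± 2.16 FPKM (SD, n = 3 each), and the log2 fold change was 0.011 (95% interval -0.27 to 0.29, adjusted p = 0.969 in limma).

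The level of Hdac1 is uncertain in a way that the other members' levels are not. Of all stretches of 50 bases in its annotated transcripts, 35.3% also occur in transcripts of other genes, against 0% to 0.86% for each of the other 9 members. Most of the shared stretches, 31.7% of all in Hdac1, lie in the processed pseudogene Gm10093 (chromosome 17, 78491582 to 78493025), which was listed at 18.6, 20.9 and 21.5 FPKM in si-NC and 19.2, 23.5 and 22.5 FPKM in si-circRtn4. A second processed pseudogene, Gm4864, was listed at 4.85 to 5.92 FPKM. Together the pseudogenes held 33.2% to 36.2% of the reads listed for Hdac1 and its copies. When their reads were added to those of Hdac1, the sum, scaled to library depth as RPM, was 94.4, 114.4 and 117.8 RPM in si-NC and 100.7, 121.6 and 113.1 RPM in si-circRtn4. This sum differed by 0.040 on the log2 scale (two-sided exact permutation test, p = 0.7). The groups thus also overlapped when Gm10093 and Gm4864 were counted with the gene. AC125456.1 shares more of the Hdac1 stretches than Gm4864 does, but no values were listed under that name. It is therefore not in the sum.

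Rbbp4 (ENSMUSG00000057236, chromosome 4, 129307100 to 129335370) encodes a histone-binding WD40 protein that NuRD shares with Sin3, PRC2 and other complexes. It was at 23.4, 29.3 and 29.5 FPKM in si-NC and at 25.6, 30.8 and 29.3 FPKM in si-circRtn4, where replicate 1 was lowest in each group and the groups overlapped. The means were 27.4 ± 3.50 and 28.6 ± 2.68 FPKM (SD, n = 3 each), with a log2 fold change of 0.062 (95% interval -0.20 to 0.33, adjusted p = 0.781 in limma). Rbbp4 shares 782 exon bases, 8.94% of its exon length, with Sync on the opposite strand, and how the counting treated strand is not given in the sources used here. Sync had means of 3.95 FPKM in si-NC and 2.57 FPKM in si-circRtn4 (adjusted p = 0.118 in limma), and its part in the value of Rbbp4 was not tested. The lincRNA Gm26722, also on the opposite strand, shares 796 exon bases (9.1%) with Rbbp4, and the antisense gene 4930537H20Rik shares 247 exon bases (2.16%) with Gatad2b.

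Among the scaffold genes Mta1 was highest (ENSMUSG00000021144, chromosome 12, 113098278 to 113137206). Mta1 was at 46.3, 47.8 and 48.4 FPKM in si-NC and at 47.8, 48.7 and 50.5 FPKM in si-circRtn4. Each si-circRtn4 library was above the si-NC library of the same number, although the groups overlapped. The log2 fold change was 0.044 (95% interval -0.11 to 0.20, adjusted p = 0.733 in limma).

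Mta2 (ENSMUSG00000071646, chromosome 19, 8941875 to 8952303) was at 21.2, 22.9 and 22.7 FPKM in si-NC and at 18.3, 22.01 and 21.1 FPKM in si-circRtn4. Here each si-circRtn4 library was below the si-NC library of the same number, and the groups overlapped. The log2 fold change was -0.12 (95% interval -0.32 to 0.083, adjusted p = 0.441 in limma).

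Mta3 (ENSMUSG00000055817, chromosome 17, 83706163 to 83821516), the scaffold paralogue with the lowest level, was at 7.86, 7.65 and 8.02 FPKM in si-NC and at 6.92, 7.48 and 7.36 FPKM in si-circRtn4. It was the only member whose groups did not overlap, with all si-circRtn4 libraries lower. The means were 7.84 ± 0.184 and 7.25 ± 0.291 FPKM (SD, n = 3 each). The exact permutation p (two-sided) was 0.1, the smallest value that 3 libraries against 3 allow, and the log2 fold change of -0.10 (95% interval -0.26 to 0.062) had an adjusted p of 0.422 in limma.

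The MBD genes differed in level but not beyond the spread between groups. Mbd3 (ENSMUSG00000035478, chromosome 10, 80392539 to 80399550), whose protein has largely lost the affinity for methylated DNA, was at 40.5, 42.6 and 45.1 FPKM in si-NC and at 40.3, 51.2 and 45.9 FPKM in si-circRtn4. Its si-circRtn4 libraries held both the lowest and the highest value, and the log2 fold change was 0.092 (95% interval -0.14 to 0.32, adjusted p = 0.615 in limma). Mbd2, which binds methylated CpG (ENSMUSG00000024513, chromosome 18, 70568189 to 70626131), was at 19.6, 20.1 and 20.2 FPKM in si-NC and at 19.7, 19.3 and 19.99 FPKM in si-circRtn4. Its groups overlapped, and it had the lowest coefficient of variation among the members in each group, 1.43% in si-NC and 1.69% in si-circRtn4. Its log2 fold change was -0.020 (95% interval -0.17 to 0.13, adjusted p = 0.883 in limma).

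The GATAD2 genes had fold changes of opposite sign, neither of which passed the test. Gatad2a (ENSMUSG00000036180, chromosome 8, 69907076 to 69996384) was at 25.9, 27.9 and 27.8 FPKM in si-NC and at 27.5, 31.8 and 33.4 FPKM in si-circRtn4. Each si-circRtn4 library exceeded the si-NC library of the same number, and the groups overlapped only through si-circRtn4 replicate 1. The means were 27.2 ± 1.15 and 30.9 ± 3.07 FPKM (SD, n = 3 each), with a log2 fold change of 0.17 (95% interval -0.034 to 0.38), an adjusted p of 0.269 in limma and one of 0.0877 to 0.532 over the alternatives. Some alternatives gave an interval above 0 and an unadjusted limma p under 0.05, and the rest did not. These were the block (0.0262), TPM (0.0148), TPM without Gm23935 (0.0361) and quantile normalization (0.0392). The others were limma-voom (0.0315) and leaving out si-circRtn4 replicate 1 (0.0163).

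Gatad2b (ENSMUSG00000042390, chromosome 3, 90293178 to 90363407) was at 6.91, 7.36 and 7.66 FPKM in si-NC and at 6.76, 5.88 and 7.37 FPKM in si-circRtn4. Each si-circRtn4 library was below the si-NC library of the same number, and the groups overlapped. The means were 7.31 ± 0.377 and 6.67 ± 0.749 FPKM (SD, n = 3 each), and the log2 fold change was -0.12 (95% interval -0.34 to 0.097, adjusted p = 0.473 in limma).

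In order of level, Hdac2, Mta1 and Mbd3 stood at the top in both groups, and Mta3 and Gatad2b at the bottom. FPKM is per gene length, and the length in the table equals the union of annotated exons for 10 of 10 members. The order by FPKM is therefore not the order by reads. Per library, Gatad2b had 1047 to 1227 reads and Mta3 had 524 to 631. Rbbp4 had 3083 to 4195 reads and Hdac2 had 2892 to 3580. In si-NC the ranges of Hdac2 and Mta1 overlapped, as did those of Rbbp4 and Gatad2a, of Mta2, Hdac1 and Mbd2 in turn, and of Mta3 and Gatad2b. Mta1 and Mbd3, Mbd3 and Rbbp4, Gatad2a and Mta2, and Mbd2 and Mta3 were separated in all 3 si-NC libraries. In si-circRtn4 the ranges of Mta1 and Mbd3 overlapped too, and Gatad2a and Hdac1 changed places with Rbbp4 and Mta2, their overlapping neighbours. The 10 members summed to 272 ± 17.3 FPKM in si-NC and 279 ± 18.9 FPKM in si-circRtn4 (SD, n = 3 each), and the groups overlapped (two-sided exact permutation test, p = 0.5).

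The subunits outside these 10 gave other values. Chd5 was the only one of them called: it was at 11.8, 9.83 and 9.52 FPKM in si-NC and fell to 3.99, 3.53 and 3.97 FPKM in si-circRtn4 (log2 fold change -1.23, 95% interval -1.46 to -1.004, adjusted p = 0.00139 in limma). The interval of none of the 10 members reached the upper end of the Chd5 interval. The log2 ratio of Chd5 to a member was lower in every si-circRtn4 library than in every si-NC library for all 10 members, by -1.30 (against Gatad2b) to -1.61 (against Gatad2a), with p = 0.1 for each in a two-sided exact permutation test. These ratios use FPKM without the added 1, unlike the fold changes, and were computed after the fall of Chd5 had been seen. All 10 share Chd5, whose fall was larger than the change of any member, so their separation restates that fall. The p-values are therefore not 10 separate results and say nothing about the members. Chd5 made up 10.3% ± 1.42 of the summed FPKM of Chd3, Chd4 and Chd5 in si-NC and 4.52% ± 0.369 in si-circRtn4 (SD, n = 3 each), while Chd4 went from 65.3% ± 1.67 to 71.8% ± 1.04. The level of Chd4 itself did not rise, with means of 65.6 FPKM in si-NC and 60.9 FPKM in si-circRtn4. The Chd3 share was 24.4% in si-NC and 23.7% in si-circRtn4, and this share overlapped between the groups.

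Chd3 was at 24.2, 24.9 and 24.4 FPKM in si-NC and at 18.8, 20.4 and 20.9 FPKM in si-circRtn4, and its groups did not overlap. Its log2 fold change of -0.28 had an adjusted p of 0.0512 in limma and of 0.0267 with replicate number as a block. Cdk2ap1, a small NuRD subunit, had a log2 fold change of -0.34 (adjusted p = 0.1198 in limma, and 0.0310 with the block). Chd4 at -0.11 and Rbbp7 at -0.21 were not called in either fit (adjusted p in limma 0.479 and 0.336, and 0.300 and 0.0524 with the block).

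**Figure D2:**
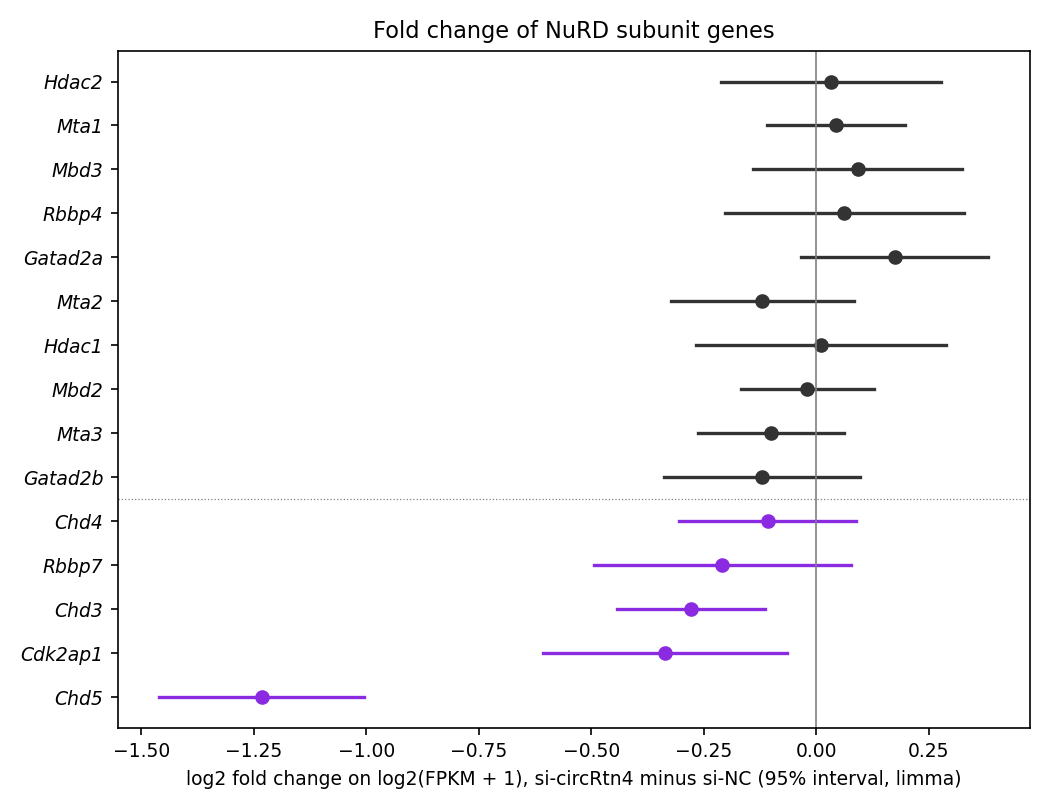
Log2 fold change on log2(FPKM + 1), si-circRtn4 minus si-NC (x axis), with its 95% interval from limma, for the 10 members (above the dotted line) and 5 other NuRD subunit genes (below). The intervals of the 10 members cross 0 and end at or above -0.34, whereas that of Chd5 runs from -1.46 to -1.004.

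Ratios of paralogues within a library do not depend on how the libraries are scaled. The 7 ratios formed are not independent, since some share a gene, 1 of them uses Rbbp7, which is not among the 10 genes, and no share of non-overlapping ratios over other gene pairs was computed. The plot of ratios by library shows them relative to the si-NC mean. Gatad2b relative to Gatad2a was 0.267, 0.264 and 0.275 in si-NC and 0.246, 0.185 and 0.220 in si-circRtn4, a difference of -0.32 on the log2 scale. Gatad2b thus made up 21.2% ± 0.362 of the GATAD2 sum in si-NC and 17.8% ± 2.07 in si-circRtn4 (SD, n = 3 each). Rbbp7 relative to Rbbp4 was 4.63, 4.58 and 4.52 in si-NC and 3.68, 3.89 and 3.77 in si-circRtn4, a log2 difference of -0.28.

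Among the scaffold genes, Mta2 relative to Mta1 was 0.458, 0.480 and 0.469 in si-NC and 0.383, 0.452 and 0.418 in si-circRtn4, a log2 difference of -0.17. Mta3 relative to Mta1 was 0.170, 0.160 and 0.166 in si-NC and 0.145, 0.154 and 0.146 in si-circRtn4, a log2 difference of -0.16. These 2 ratios share Mta1, whose part of the MTA sum was 61.2% ± 0.230 in si-NC and 63.9% ± 1.58 in si-circRtn4 (SD, n = 3 each). The Mta2 part overlapped between the groups (28.13% to 29.26% in si-NC, 25.06% to 28.15% in si-circRtn4). The Mta3 part did not (9.76% to 10.44% in si-NC, 9.32% to 9.56% in si-circRtn4). Each of the 4 ratios was lower in all si-circRtn4 libraries, and each had p = 0.1 in a two-sided exact permutation test (0.175 after Benjamini-Hochberg adjustment over the 7 ratios), the smallest value this design allows. None can therefore pass a threshold of 0.05.

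The other 3 ratios overlapped between the groups. Mbd3 relative to Mbd2 was 2.06 to 2.24 in si-NC and 2.04 to 2.65 in si-circRtn4 (log2 difference 0.11, exact permutation p = 0.5). Hdac2 relative to Hdac1 was 2.26 to 2.44 in si-NC and 2.13 to 2.60 in si-circRtn4 (log2 difference 0.022, exact permutation p = 0.8), with the uncertainty of Hdac1 given above. Mta3 relative to Mta2 differed by 0.012 on the log2 scale (exact permutation p = 0.8).

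**Figure D3:**
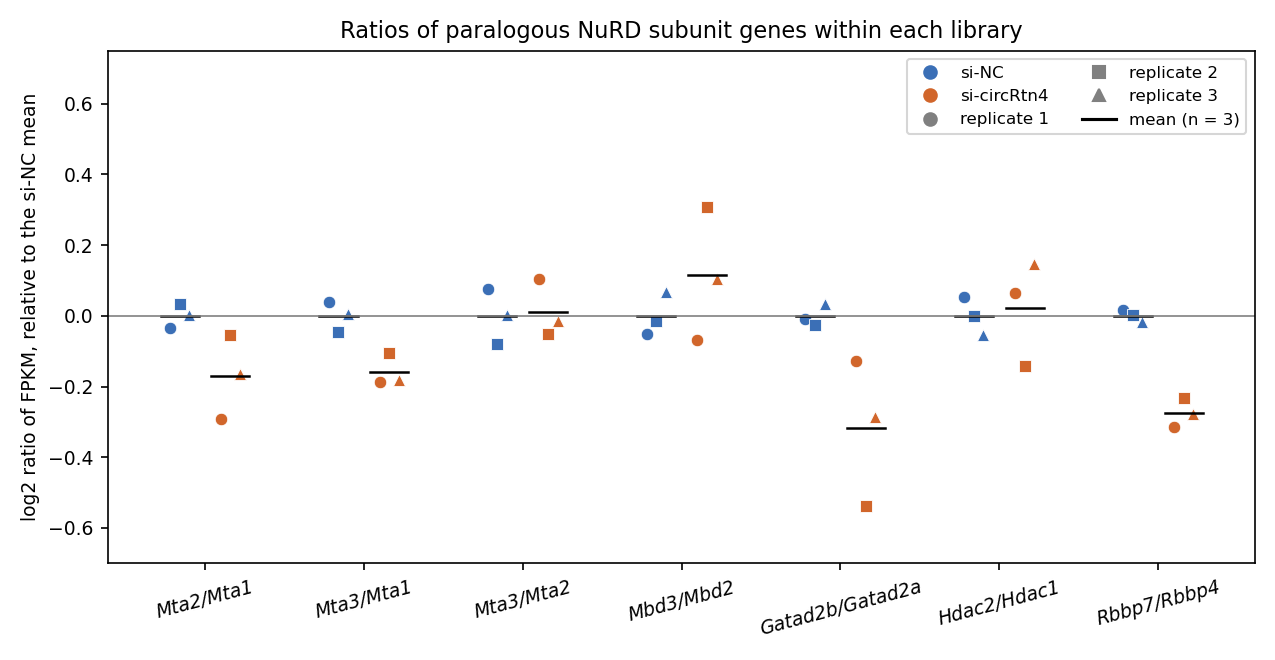
Log2 ratio of FPKM of paralogous subunit genes in each library, shown relative to the mean of the si-NC libraries (y axis), with lines at the mean of 3 libraries. For Mta2/Mta1, Mta3/Mta1, Gatad2b/Gatad2a and Rbbp7/Rbbp4 all si-circRtn4 libraries lie below all si-NC libraries, and the mean differences are -0.17, -0.16, -0.32 and -0.28.

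A microRNA pairs with a transcript mainly through bases 2 to 8, the seed, and siRNA strands can pair with unintended transcripts in the same way. The longest annotated 3′ UTR of each gene was therefore searched for the 7 bases that pair with each seed. Pairing of the siRNA with its intended target over its full length is not covered by this search. The sequences are shown, 5′ to 3′ with the seed in capitals, because they define the sites. MiR-24-3p, the microRNA that the study connects with circRtn4, is given as in RefSeq (GRCm38.p6), the listed strand as in the siRNA table of the study, and the guide strand was taken as its reverse complement.
miR-24-3p: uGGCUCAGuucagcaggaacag
si-circRtn4 guide strand: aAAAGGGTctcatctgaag
si-circRtn4 listed strand: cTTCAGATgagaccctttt

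No member holds the 7-base site of miR-24-3p (CTGAGCC) in this 3′ UTR, which was found for 10 of 10 members, whereas 2092 of 10694 genes tested with such a UTR (19.6%) hold it. The members' 3′ UTRs had a median of 733 bases, against 1169 bases for all of these genes. Chd5 holds 1 such site, followed by A and hence an 8mer. The study made luciferase reporters for 2 sites of CHD5 and reported lower activity of a CHD5 reporter with a miR-24-3p mimic. Its text does not give the positions of those sites, so they were not matched to the site found here. For the guide strand the site (ACCCTTT) occurs in 12.5% of the genes and in 1 member, Gatad2b, whose 3′ UTR of 5405 bases is the longest among the members. For the listed strand the site (ATCTGAA) occurs in 13.2% of the genes and in 2 members, Gatad2b and Rbbp4, with 2 sites each.

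The sites of the guide strand in Gatad2b and, for comparison, those in Chd5 are printed with 10 flanking bases on each side and the site in capitals, on the plus strand of GRCm38. The coordinates are those of the 7 bases, except that the miR-24-3p site of Chd5 spans an exon junction between its first and last coordinate.
Gatad2b, guide strand 8mer, chr3:90358940-90358946: acaccttcatACCCTTTaacaagtgtt
Gatad2b, guide strand 7 bases, chr3:90363097-90363103: agggaacaagACCCTTTtgcacaactc
Chd5, guide strand 7 bases, chr4:152390167-152390173: gttttaataaACCCTTTgggaagggat
Chd5, miR-24-3p 8mer, chr4:152385998-152386916: tcctttccagCTGAGCCaagccacctg

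Gatad2b, with 2 guide-strand sites, had a log2 fold change of -0.12, which did not pass the test. The 1336 genes with a guide-strand site had a median log2 fold change of -0.049, and the 9358 genes without one had a median of 0.0068. For miR-24-3p these medians were 0.0040 with a site and -0.00093 without, and for the listed strand -0.0085 and 0.0016. Rbbp4, with 2 sites of the listed strand, was at 0.062. A match says only that the letters are there, and whether any site is bound was not tested.

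Beside the 5 other NuRD subunits, lists of proteins that recruit NuRD, of complexes and families related to it and of proliferation genes were examined. Over all these lists 3 genes passed: Chd5 among the other subunits, Sall2 among the recruiting factors and the cyclin gene Ccnd1 among the proliferation genes. Among 17 recruiting factors 11 were tested, and 1 was called higher and 0 lower. It was Sall2, a zinc finger gene, at 5.20 ± 0.127 FPKM in si-NC and 6.74 ± 0.150 FPKM in si-circRtn4 (SD, n = 3 each), and its log2 fold change was 0.32 (adjusted p = 0.0323 in limma, and 0.0205 to 0.0974 over the alternatives). This call was lost whichever library was left out. With the replicate block Zeb2 and Zfpm1 were also called higher. The median of this list was 0.044.

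The other complexes of Hdac1 and Hdac2 had 0 called genes, of 13 tested in Sin3 (median log2 fold change -0.023) and 9 in CoREST (-0.016). The complexes of Rbbp4 also had 0, of 8 tested in PRC2 (-0.038), 4 in CAF-1 and NURF (0.016) and 4 in MuvB (0.070). The MBD family outside NuRD had 0 of 6 (-0.088) and the other histone deacetylases 0 of 7 (0.021). At an unadjusted p under 0.05 these 7 lists held 1, 2, 0, 1, 1, 0 and 2 genes in the same order. With the replicate block Arid4a (Sin3), Hdac10 and Hdac11 were called lower and Chaf1b (CAF-1) higher, and the CoREST, PRC2, MuvB and MBD lists still had 0 called genes. Of 15 proliferation genes, 1 was called lower and 0 higher (median -0.11), and it was Ccnd1, which fell from 80.1 ± 0.844 to 58.6 ± 2.12 FPKM (SD, n = 3 each, adjusted p = 0.00970 in limma). Without si-NC replicate 2 the call of Ccnd1 was lost as well, and with the replicate block Ccnb1 and Plk1 were also called lower and Ccne1 higher. The shares of all genes tested that were called in either direction were 9.19% without the block and 19.0% with it.

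**Figure D4:**
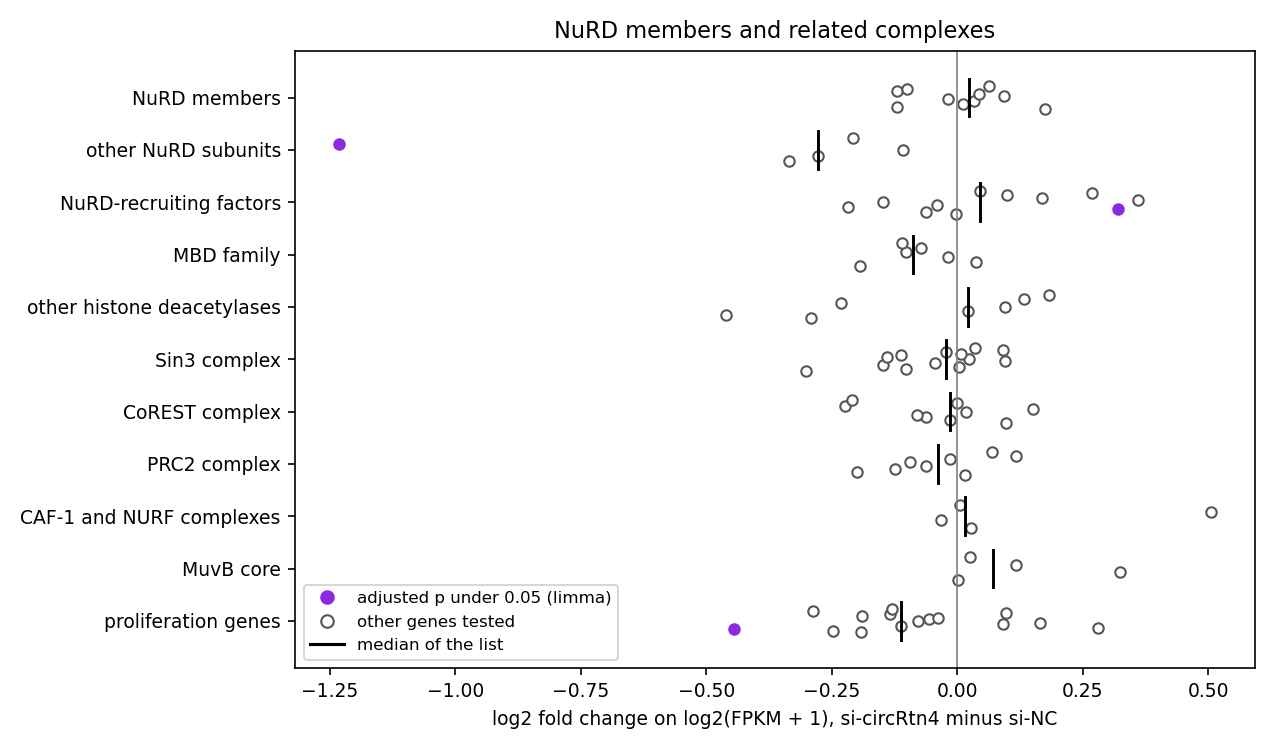
Log2 fold change on log2(FPKM + 1), si-circRtn4 minus si-NC (x axis), of each gene tested in the NuRD members and 10 related lists, with filled points for an adjusted p under 0.05 and a line at the median of each list. The NuRD members lie between -0.12 and 0.17 with no filled point, and the filled points are Chd5, Sall2 and Ccnd1.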

How the data were processed

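RNA sequencing values of 6 N2a libraries were used, with group and replicate number taken from the titles in the labels, whose names the columns carry. A further 6 columns of other samples were left out. The authors deposited FPKM per gene with gene length and coordinates. The submitters' processing notes name Bowtie 0.12.2, mm8 and mm9, whereas 98.1% of the genes have the coordinates of GENCODE M21 (GRCm38). Multiplied by gene length, 100% of values were whole numbers of reads (tolerance 0.01 reads).

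Fits on log2(FPKM + 1) used limma 3.58.1 (R 4.3.3; eBayes with a mean-variance trend) and the genes whose mean reached 1 FPKM, with Benjamini-Hochberg adjustment. Exact permutation tests used scipy 1.17.1. The fit was run on simulated counts with changes larger than that of any member and no replicate effect. That run does not show whether changes as small as those of the members would be found. No label says that replicate numbers pair the libraries. Same-numbered libraries deviated together from their group means (r = 0.331, 0.190 and 0.226), whereas libraries of different number had r of -0.228 to 0.0091. The main fit, its intervals and the permutation tests of 3 against 3 libraries do not use such a pairing, and the block does. Members and lists were chosen with earlier results of these data known. Text names all members, the 5 other subunits, Rtn4, and at most 3 called genes per list. Copies, overlapping genes, markers and genes called only with the block were named after their values were seen. Alternatives were another pseudocount, filters, scalings, limma-voom, the block and leaving out each library. Some marker genes are not reported here.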

Additional observations from a re-analysis of the deposited data

How the results depend on the processing

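No member was called in any of the 14 alternatives tried, 6 of which left out 1 library each. Of 141 fold changes of members under alternatives, 133 kept their direction without a call and 8 changed sign. Mbd2 changed sign as TPM (0.069), as TPM without Gm23935 (0.0014) and in limma-voom on recovered reads (0.0020). Leaving out 1 library gave -0.10 to 0.087 for Hdac1 (negative without si-NC replicate 1 or si-circRtn4 replicate 2), -0.056 to 0.092 for Hdac2 (negative without si-NC replicate 1 or si-circRtn4 replicate 3) and -0.044 to 0.14 for Rbbp4 (negative without si-NC replicate 1). The log2 difference of Mta3/Mta2 ran from -0.034 to 0.049 and that of Hdac2/Hdac1 from -0.040 to 0.11, while the other 5 ratios kept their direction. In the paired form of the ratios, an exact sign-flip test over replicate numbers, the 4 ratios that did not overlap gave p = 0.25, the smallest 3 pairs allow. Over all genes tested the calls numbered 1171, but 471 with every detected gene tested, 2428 with replicate number as a block, and 380 (without si-NC replicate 2) to 826 when 1 library was left out. In the related lists 3 genes were called, 14 with the replicate block (Chd3 and Cdk2ap1 among the subunits, and the 9 others named beside their lists), and 1 to 2 without 1 library, Chd5 in each case and Sall2 in none. The block changed no call among the members. The cause of these shifts was not tested. At least 524 reads stood behind each member's value in each library. The SE of their log2 fold changes was 0.0633 to 0.119, and 0.0502 to 0.0760 with the replicate block.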
